A study of Mus musculus with 16 samples.

Results

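The antigen response that remained under dexamethasone (DEX) was measured in 8 of the 16 RNA-seq samples of the series, as the difference between 4 samples labelled IgE DNP DEX and 4 labelled IgE DEX. These samples were taken by their treatment label alone, with PEP+/+ and PEP-/- cells pooled. The other 8 samples, 4 labelled IgE DNP and 4 labelled IgE, gave the response without DEX. No sample was shared between these 2 responses, so the genes induced or lowered by antigen without DEX were defined on other samples than those compared under DEX. Both responses came from a single fit over all 16 samples and share its estimate of the spread and its terms for genotype and replicate set.

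All samples were bone marrow derived mast cells (BMMCs), mast cells grown in vitro from marrow of male C57BL/6 mice and used after 4 weeks in culture. Every culture was sensitized with IgE for 3 h, at 0.05 µg/ml per the labels, while the methods of the study give a higher dose. In the IgE DNP DEX and IgE DNP groups the antigen dinitrophenol (DNP) was added at 200 ng/ml for 1 h, and in the IgE DNP DEX and IgE DEX groups the cells received DEX at 100 nM for 8 h. Each treatment held 2 PEP+/+ samples and 2 PEP-/- samples, the latter from mice without the phosphatase PEP, which Ptpn22 encodes. The titles number 1 sample of each genotype and treatment and give the other a letter. Below, 4 values of 1 treatment are always in the order PEP+/+ numbered, PEP+/+ lettered, PEP-/- numbered and PEP-/- lettered. The series calls the replicates biological, but the labels tie no sample to an animal or a culture, so the p-values measure the spread between these samples, which may be partly technical. Ptpn22 was at 66.5 and 71.6 CPM (counts scaled to the library size) in the PEP+/+ IgE DEX samples, at 160 and 175 CPM in the PEP+/+ IgE DNP DEX samples, and between 0 and 1.24 CPM in the 4 PEP-/- samples of these groups, so the genotype labels and the expression of the targeted gene matched.

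Mast cells carry IgE on its high-affinity receptor, and an antigen that cross-links this IgE starts a cascade of tyrosine kinases, calcium entry, MAP kinases and NF-kB. Within the first hour this cascade induces immediate early transcription factors, then cytokines and chemokines, and also the phosphatases, inhibitors and mRNA decay factors that end the signal. Dexamethasone acts through the glucocorticoid receptor, which raises some genes directly, several signal inhibitors among them, and holds down many inflammatory genes.

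Between 9096387 and 22143526 reads were counted on genes in the IgE DEX samples and between 8612531 and 17101776 in the IgE DNP DEX samples. Reads that aligned to several places, which were not counted on any gene, made up 25.1% to 27.7% of all reads in IgE DEX and 30.3% to 37.8% in IgE DNP DEX, and their part in the results was not tested. The lettered samples had more reads outside genes than the numbered ones, and this set was a term of the fit. The summed level of 12 mast cell markers was 74129 to 82716 CPM in IgE DEX and 84115 to 107190 CPM in IgE DNP DEX. Of these markers 3 were increased and 2 decreased, beside 20.1% and 21.0% of all genes. Tpsab1, Hdc and Gata2 were increased (log2 fold changes of 4.37, 2.13 and 0.29), and Kit and Mitf were decreased (-0.33 and -0.55). Fcer1a, the IgE-binding chain of the receptor, was at 7598 CPM or more in each of the 8 samples. Of the 8 macrophage and monocyte markers Cx3cr1 made up nearly all of the sum of 357 to 844 CPM in IgE DEX and 281 to 583 CPM in IgE DNP DEX, while C1qa was at 0 and Csf1r at 1.05 CPM or less. In the same way Itga2b made up nearly all of the megakaryocyte sum (2429 to 3658 and 2469 to 3921 CPM), with Pf4 at 0.102 CPM or less. The 3 basophil markers summed to 228 to 392 CPM in IgE DEX and 431 to 479 CPM in IgE DNP DEX with 1 of them increased. The summed markers of neutrophils, eosinophils, erythroid, dendritic, B and T cells were each at 8.06 CPM or less, with Siglecf of the eosinophil list and Hba-a1 of the erythroid list increased by antigen (log2 fold changes of 0.95 and 0.81). Cx3cr1 was decreased (-0.51), and the part of such cells was not tested. In bulk samples fewer cells of a type and less RNA per cell cannot be told apart.

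Most of the antigen response remained in the presence of DEX. Among 13305 genes tested, 2678 were increased by DNP under DEX (20.1%) and 2793 were decreased (21.0%), with edgeR at an adjusted p under 0.05. Counts of increased and decreased genes in the gene lists below stand beside these shares. Without DEX, DNP increased 2627 genes (19.7%) and decreased 2771 (20.8%). Of these 2627 antigen-induced genes 1878 (71.5%) were also increased under DEX, which is 70.1% of the genes increased there, against 20.1% of all genes. Of the 2771 antigen-lowered genes 1973 (71.2%) were also decreased under DEX, which is 70.6% of the genes decreased there, against 21.0% of all genes. The fold change had the same sign with and without DEX for 2493 induced genes (94.9%) and for 2680 lowered genes (96.7%).

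**Figure D1:**
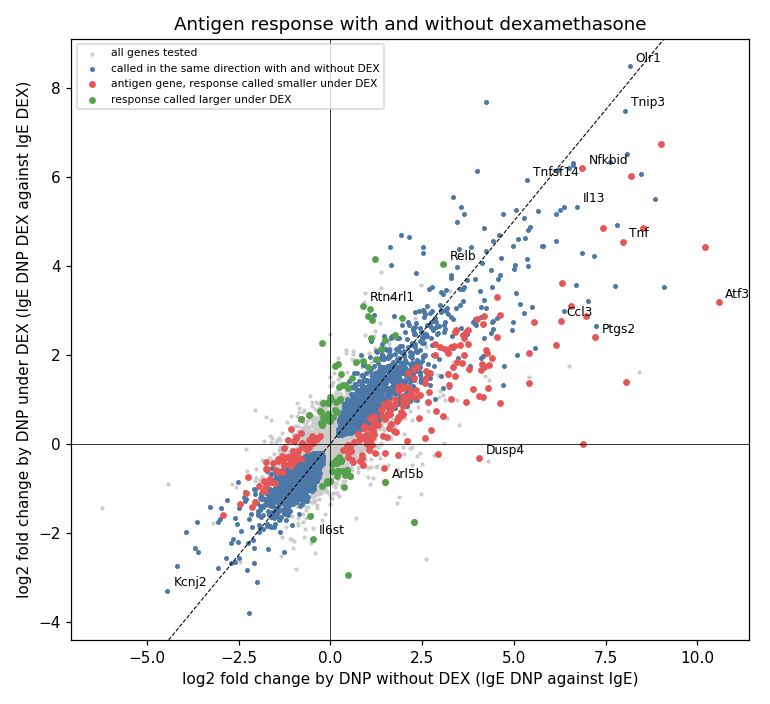
Each point is 1 of the 13305 genes tested, placed by its log2 fold change by DNP without DEX (x axis, 4 against 4 samples) and under DEX (y axis, 4 against 4 samples), and the dashed line marks equal responses. Most coloured points lie in the upper right and lower left quadrants, the antigen genes with a smaller response (red) lie between the dashed line and the x axis or past it, and Dusp4 lies near 0 under DEX.

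The response that remained was smaller in size. The median log2 fold change of the induced genes was 0.55 under DEX and 0.71 without DEX, beside a median of -0.02 over all genes under DEX, and it lay between 0.47 and 0.65 in the 4 differences within a genotype and replicate set. For the lowered genes the median was -0.52 under DEX and -0.64 without it, and it lay between -0.57 and -0.44 in the 4 differences. Because the genes were chosen on the response without DEX, some shrinkage of the other response follows from the choice. The share called again under DEX rose with the size of the response: 65.0% of 1673 genes induced by less than 1 on the log2 scale without DEX were also increased under DEX, 79.3% of 571 genes between 1 and 2, 86.8% of 265 genes between 2 and 4, and 90.7% of 118 genes above 4. Larger changes are called more easily, so this rise does not show that weaker responses were lost more often. The ratio of both responses went the other way, with a median of 0.778, 0.755, 0.730 and 0.623 in the same order. A smaller response was called for 29, 63, 55 and 36 of these genes, again in the same order, and counts of smaller responses in the gene lists below stand beside these numbers.

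A difference between both responses needs its own test. It was called lower under DEX for 204 of all genes (1.53%) and higher for 115 (0.864%). Among the induced genes 183 had a called smaller response, of which 131 were still increased under DEX, 46 were not called there and the others were called decreased. Smaller here means a called difference against the direction of the response without DEX, so it includes reversed responses of any size. A further 20 induced genes had a larger increase under DEX, and 1727 were increased in both settings with no called difference. The other 695 induced genes without a call under DEX had no called difference either, so for these the data do not show a lost response. The 183 fell to 120 without the lettered PEP-/- IgE DNP sample. Without the replicate set as a term, 1332 and 1138 genes were called increased and decreased under DEX and 53 induced genes had a smaller response. With library sizes alone in place of TMM, the median of all genes moved from -0.02 to -0.28 and the split became 1324 increased and 5466 decreased, so all changes given here are relative to the bulk of genes.

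The largest increases under DEX were in a scavenger receptor, NF-kB regulators, immediate early factors and ligands. Nfkbid, an atypical inhibitor of NF-kB in the nucleus, was at 8.6, 17.1, 5.65 and 15.4 CPM in the IgE DEX samples and at 629, 1121, 474 and 1120 CPM in the IgE DNP DEX samples. Each sample with antigen lay far above each without, and the log2 fold change was 6.19 ± 0.12 (SE, n = 4 against 4, edgeR adjusted p = 1.15e-16). Without DEX it was 6.86, and the difference of -0.67 ± 0.15 was called (edgeR adjusted p = 0.017). Tnip3, which restrains NF-kB signalling together with the ubiquitin editor A20, was at 0, 0.126, 0.104 and 0.102 CPM before and at 9.63, 22.4, 11.2 and 26.7 CPM after antigen. Its log2 fold change was 7.48 ± 0.27 under DEX and 8.03 without, with no called difference (edgeR adjusted p = 0.82). Olr1, a scavenger receptor for oxidized lipoprotein, had 1 read in all 4 IgE DEX samples together and 413 in the IgE DNP DEX samples, at 6.25, 13.8, 3.6 and 9.33 CPM. This is a ratio of 600 with a 95% counting interval of 107 to 23749.

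Tnfsf14, the TNF family ligand LIGHT, was at 16.8, 12.9, 12.4 and 9.56 CPM in IgE DEX and at 662, 806, 696 and 1023 CPM in IgE DNP DEX. The groups were far apart, and the log2 fold change of 5.92 ± 0.20 (edgeR adjusted p = 4.95e-13) stood beside 5.37 without DEX, with no called difference. Gadd45b, a stress sensor upstream of p38 and JNK, went from 2.54, 1.3, 1.97 and 1.42 CPM to 158, 150, 100 and 173 CPM. Its log2 fold changes with and without DEX were 6.31 ± 0.24 and 6.60, with no called difference. Ccl1, a chemokine for T helper and other CCR8-bearing cells, rose by 6.26 ± 0.32 on the log2 scale under DEX and by 6.62 without. Its mean level was 34.2 CPM after antigen from 0.480 CPM under DEX, and 180 CPM from 1.67 CPM without. The other genes among the 10 largest increases, Nr4a3, Fosb, Egr3 and Ccl4, are described with their families.

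The promoters of 4 strongly responding genes and of Nfkbia and Dusp1, whose responses shrank, are shown because they hold letters of the factors that this pathway acts on. Nfkbid, among the 4, also had a called smaller response. The choice is not typical: Nr4a3, Ccl1, Ccl3, Atf3, Traf1 and Ptgs2 had no match to the letters counted below. Shown are the 250 bases before a RefSeq start of each gene on GRCm38.p6, 5′ to 3′ on the strand of the gene. For Nfkbid this is 1 of 3 promoters. Tnip3 lies at chr6:65590148-65590397 (plus strand), with a match to the NF-kB site in capitals 54 to 45 bases before the start. Nfkbid lies at chr7:30422156-30422405 (plus strand), with 2 NF-kB matches and the cAMP response element TGACGTCA in capitals. Olr1 lies at chr6:129507166-129507415 (minus strand), with an AP-1 site in capitals. Dusp5, a phosphatase of ERK described below, lies at chr19:53528895-53529144 (plus strand), with adjoining CArG boxes, the site of serum response factor, in capitals 82 to 63 bases before the start. Nfkbia lies at chr12:55492648-55492897 (minus strand), with an NF-kB match in capitals, and Dusp1 at chr17:26508473-26508722 (minus strand), with a cAMP response element in capitals.
Tnip3: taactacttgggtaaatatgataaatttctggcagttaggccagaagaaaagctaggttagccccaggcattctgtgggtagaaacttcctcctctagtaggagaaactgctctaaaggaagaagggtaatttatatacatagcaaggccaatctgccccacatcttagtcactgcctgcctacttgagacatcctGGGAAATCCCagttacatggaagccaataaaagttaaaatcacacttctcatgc
Nfkbid: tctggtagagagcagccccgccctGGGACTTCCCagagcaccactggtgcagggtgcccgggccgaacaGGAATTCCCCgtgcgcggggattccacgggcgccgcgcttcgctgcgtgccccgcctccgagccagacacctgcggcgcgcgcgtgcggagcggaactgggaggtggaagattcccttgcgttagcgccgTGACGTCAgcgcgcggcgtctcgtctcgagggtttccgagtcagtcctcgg
Olr1: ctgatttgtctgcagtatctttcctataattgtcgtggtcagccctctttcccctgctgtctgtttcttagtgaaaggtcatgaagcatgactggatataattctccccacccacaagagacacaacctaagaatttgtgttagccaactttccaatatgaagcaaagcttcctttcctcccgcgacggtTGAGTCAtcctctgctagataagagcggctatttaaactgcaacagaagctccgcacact
Dusp5: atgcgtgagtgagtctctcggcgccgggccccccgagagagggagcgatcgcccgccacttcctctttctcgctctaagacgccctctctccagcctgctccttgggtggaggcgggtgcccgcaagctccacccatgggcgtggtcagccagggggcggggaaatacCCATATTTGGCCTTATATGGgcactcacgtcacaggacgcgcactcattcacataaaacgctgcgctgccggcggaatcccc
Nfkbia: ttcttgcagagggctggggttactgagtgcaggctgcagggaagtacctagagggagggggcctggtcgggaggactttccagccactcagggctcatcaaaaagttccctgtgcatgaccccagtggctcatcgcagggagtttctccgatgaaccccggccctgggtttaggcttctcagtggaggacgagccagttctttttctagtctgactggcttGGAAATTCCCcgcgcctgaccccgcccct
Dusp1: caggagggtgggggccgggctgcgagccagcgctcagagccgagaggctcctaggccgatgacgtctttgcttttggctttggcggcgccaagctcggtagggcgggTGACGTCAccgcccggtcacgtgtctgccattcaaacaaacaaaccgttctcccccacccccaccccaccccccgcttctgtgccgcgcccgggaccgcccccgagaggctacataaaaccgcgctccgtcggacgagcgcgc

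These letters were also counted over all promoters from 250 bases before to 50 after the start, on both strands. Of the 1878 genes increased with and without DEX 1397 had a promoter in the RefSeq table, and of the 183 genes with a smaller response 139 had one, against 9594 of all genes tested. The cAMP response element TGACGTCA was present in 4.80% of the promoters of the increased genes, in 10.1% (14 genes) of those with a smaller response, in 3.55% of all genes tested and in 1.79% of the 32851 promoters of the table. The NF-kB site was present in 8.88%, 11.5%, 6.04% and 4.51%, the AP-1 site TGANTCA (with C or G at N, and not part of the former) in 7.16%, 8.63%, 4.56% and 5.20%, and the CArG box in 2.43%, 3.60%, 1.52% and 1.63%, in the same order. The EGR site GCGNGGGCG (with G or T at N) overlaps GC-rich promoters in general and was present in 9.02%, 10.8%, 7.68% and 3.47%, and the TATA box TATAAA in 11.2%, 15.8%, 8.37% and 13.6%. The palindromic glucocorticoid response element was rare, with 4 of 1397 increased genes (0.286%) and 1 of 139 genes with a smaller response (0.719%), against 0.365% of all genes tested. Of the 46 induced genes with a smaller response and no call under DEX 35 had a promoter. Among these 35 the NF-kB site was in 0, the cAMP response element in 2 (5.71%), the AP-1 site in 4 (11.4%) and the CArG box in 3 (8.57%). A match describes the letters of this window and no binding was measured.

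Of 27 immediate early and other early transcription factors tested, 25 were increased under DEX, 5 with a called smaller response, and the median log2 fold change of the list was 2.45 under DEX and 2.31 without. Nr4a3, an orphan nuclear receptor of the acute response, was at 2.61, 0.925, 2.96 and 1.63 CPM in IgE DEX and at 175, 284, 162 and 264 CPM in IgE DNP DEX, a log2 fold change of 6.74 ± 0.32 (edgeR adjusted p = 1.95e-11). Without DEX it rose by 9.01 to a mean of 809 CPM, and the difference was called (edgeR adjusted p = 0.013). Fosb and Egr3 rose by 6.33 ± 0.30 and 6.15 ± 0.38 on the log2 scale under DEX, with no called difference. Egr3 showed the replicate sets apart, at 236 and 440 CPM in the numbered and 146 and 79.1 CPM in the lettered IgE DNP DEX samples. Egr4 had no read in the IgE DEX samples and 39 in the IgE DNP DEX samples, at least 18.9-fold more against a floor of 3 reads over the group.

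Atf3, a stress-induced repressor of the CREB family, had the largest called loss of response on this list. It was at 114, 195, 95.5 and 183 CPM in IgE DNP and at 14.1, 23.1, 26.3 and 25.2 CPM in IgE DNP DEX, so the groups did not overlap. It still rose under DEX, from 1.5, 0.967, 5.55 and 1.32 CPM, by 3.18 ± 0.36 on the log2 scale (edgeR adjusted p = 1.80e-06). Maff, a small Maf protein, rose by 1.35 ± 0.37 under DEX and by 5.42 without, and Fosl2 and Egr1 completed the group with smaller responses. Klf2 and Klf6 were the 2 members not called, at -0.02 and 0.10 on the log2 scale.

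Of 16 cytokine genes tested all were increased by DNP without DEX, and 13 were still increased under DEX, 6 of the 16 with a called smaller response. The median log2 fold change fell from 4.39 without DEX to 2.11 under DEX. Il13, a T helper 2 cytokine of allergic inflammation, was at 1.24, 0.294, 0.467 and 0.407 CPM in IgE DEX and at 24.3, 38.4, 11.3 and 17.9 CPM in IgE DNP DEX. Every antigen sample was above every sample without antigen, and the log2 fold change was 5.32 ± 0.27 (edgeR adjusted p = 5.27e-11). Without DEX the 4 IgE samples were at 5.14, 5.03, 3.73 and 3.29 CPM and the IgE DNP samples at 620, 701, 266 and 317 CPM, a log2 fold change of 6.72. The difference of both responses, -1.40 ± 0.43, was not called (edgeR adjusted p = 0.11), while the mean after antigen was 23.0 CPM under DEX and 476 CPM without, and the mean before antigen was 0.601 and 4.30 CPM.

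Tnf, the inflammatory cytokine TNFα, had the same level before antigen in both settings. It was at 1.24, 2.02, 0.57 and 0.915 CPM in IgE DEX, a mean of 1.19 CPM beside 1.21 CPM in IgE. After antigen it was at 25.9, 33.5, 17.8 and 28.5 CPM under DEX and at 428, 464, 156 and 185 CPM without. The increase under DEX was 4.54 ± 0.23 on the log2 scale (edgeR adjusted p = 4.67e-11) and 3.44 ± 0.38 smaller than without DEX (edgeR adjusted p = 3.32e-05). Csf2, the cytokine GM-CSF, had no read in the IgE DEX samples and 28 in the IgE DNP DEX samples, at least 13.6-fold more against a floor of 3 reads over the group. Its 4 values of 0.651, 1.19, 0.156 and 0.190 CPM lay below the lowest IgE DNP value of 3.28 CPM, but the difference of responses was not called. In PEP-/- samples alone its increase under DEX was not called (4.23 on the log2 scale, edgeR adjusted p = 0.10). Il33, an alarmin, rose from 1 read to 55 in all 4 samples together, a ratio of 79.9 with a 95% counting interval of 13.8 to 3212. Il1a, the alarmin IL-1α, rose by 3.61 ± 0.35 on the log2 scale under DEX and by 6.31 without, with a called difference (edgeR adjusted p = 0.018). Il6, a pyrogenic cytokine, rose from a mean of 24.8 to 81.3 CPM under DEX, by 1.73 ± 0.16 on the log2 scale, and by 4.20 without. The 3 cytokines not called under DEX were Il5 and Il9, each with no read in IgE DEX and 1 read in a single IgE DNP DEX sample, and Osm at -0.26 ± 0.15. At this depth an increase of Il5 or Il9 under DEX was not detectable.

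Of 9 chemokine genes tested 7 were increased under DEX, and 4 had a called smaller response. Ccl4, which attracts T cells and macrophages, was at 1.89, 1.93, 2.23 and 2.75 CPM before and at 188, 129, 83.6 and 162 CPM after antigen under DEX. The groups were far apart, with a log2 fold change of 6.02 ± 0.26 (edgeR adjusted p = 6.02e-12), yet the response was 2.18 ± 0.36 smaller than without DEX, where the mean after antigen was 1360 CPM. Ccl3, an inflammatory chemokine, lost more, with 65.2, 47, 41.8 and 39.6 CPM in IgE DNP DEX against 1004, 704, 481 and 568 CPM in IgE DNP. It rose by 2.76 ± 0.24 under DEX and by 6.27 without (edgeR adjusted p of the difference = 5.63e-06). Ccl7, which attracts monocytes, rose by 4.85 ± 0.24 and 7.44 in the same order. Cxcl2, which attracts neutrophils, kept its increase with 4.44 under DEX and 4.97 without, at only 1 to 3.52 CPM.

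**Figure D2:**
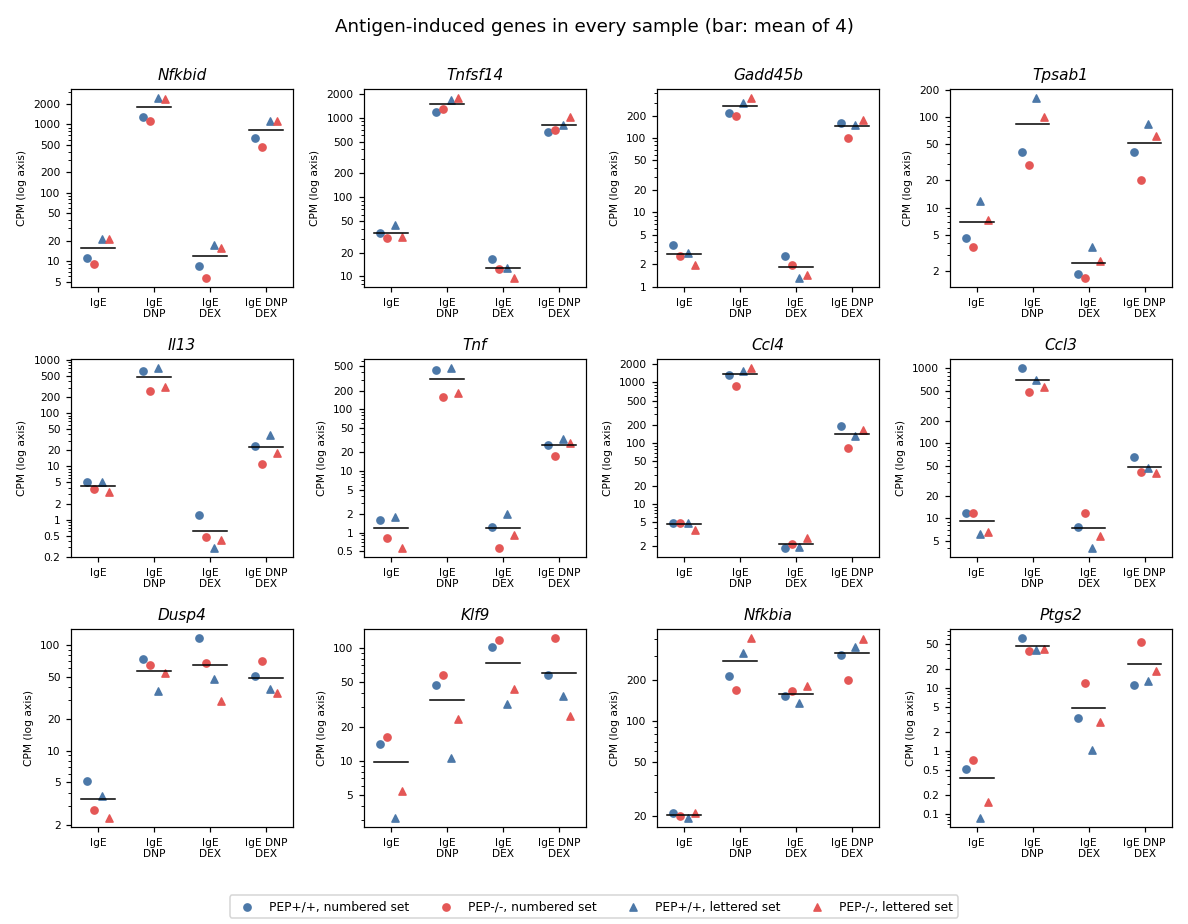
CPM on a log axis of 12 antigen-induced genes in all 16 samples, by treatment, with circles for the numbered and triangles for the lettered set, blue for PEP+/+ and red for PEP-/-, and a bar at the mean of 4. Tnfsf14, Gadd45b and Tpsab1 rose in both settings with no called difference, Nfkbid rose by slightly less under DEX, Il13, Tnf, Ccl4 and Ccl3 rose to lower levels under DEX, and Dusp4, Klf9, Nfkbia and Ptgs2 started higher under DEX.

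NF-kB subunits and their inhibitors largely kept responding: 17 of 18 genes tested were increased under DEX and 16 without, with a median log2 fold change of 1.54 and 2.46. Nfkbia, the inhibitor IκBα that holds NF-kB in the cytoplasm, was at 153, 136, 165 and 180 CPM in IgE DEX and at 303, 349, 198 and 400 CPM in IgE DNP DEX. The lowest value with antigen was thus only just above the highest without, and the increase of 0.94 ± 0.18 on the log2 scale (edgeR adjusted p = 5.48e-04) was far below the 3.71 without DEX, where the mean level rose from 20.3 to 275 CPM. Traf1, an adaptor of TNF receptors, rose by 2.10 ± 0.13 under DEX and by 4.24 without. In all 7 genes of this list had a called smaller response. Relb, a subunit of the alternative NF-kB pathway, was the exception with a called larger response: it went from 3.45, 4.92, 4.62 and 7.22 CPM to 73.9, 105, 46.3 and 108 CPM, or 4.03 ± 0.16 on the log2 scale against 3.08 without DEX (edgeR adjusted p of the difference = 0.017). Relb was named after its value was seen.

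Of 16 genes tested that end MAP kinase signalling 10 were increased and 1 decreased under DEX, with a median log2 fold change of 0.98 beside 2.55 without DEX. A smaller response was called for 8 of the 16, against 183 of 2627 induced genes. Of the genes induced by 1 to 2 on the log2 scale without DEX 63 of 571 had a smaller response. It was 55 of 265 between 2 and 4, and 36 of 118 above 4. The members with a smaller response lay in all of these classes. Dusp5, a nuclear phosphatase of ERK, went from 12.8, 5.76, 10.2 and 6.31 CPM to 193, 214, 136 and 237 CPM, an increase of 4.44 ± 0.27 on the log2 scale (edgeR adjusted p = 4.49e-10) beside 5.79 without DEX, and the difference of -1.35 ± 0.36 was just short of a call (edgeR adjusted p = 0.057). Dusp4, another phosphatase of ERK, was at 116, 47.2, 67.6 and 29.8 CPM in IgE DEX and at 50.4, 38.3, 70.8 and 35.2 CPM in IgE DNP DEX. These groups overlapped and the change of -0.33 ± 0.20 was not called (edgeR adjusted p = 0.20). Without DEX Dusp4 rose from a mean of 3.48 to 57.1 CPM, beside a mean of 48.7 CPM after antigen under DEX, and the difference of responses was -4.39 ± 0.32 (edgeR adjusted p = 3.25e-07). Dusp10 at -0.21 ± 0.28 was likewise not called under DEX, from a mean of 5.02 to 4.27 CPM, with an increase of 1.48 without DEX. Its called difference of -1.70 ± 0.39 (edgeR adjusted p = 0.022) was lost without any of 6 samples, the PEP-/- numbered IgE DEX, the PEP+/+ and PEP-/- lettered IgE, the PEP+/+ and PEP-/- lettered IgE DNP and the PEP-/- lettered IgE DNP DEX sample, with values of -1.60 to -1.42. Dusp14 and Dusp8 rose by 4.05 ± 0.44 and 3.08 ± 0.42 under DEX, the latter by less than without (6.55, edgeR adjusted p of the difference = 0.032).

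Of 20 genes tested that glucocorticoids are known to raise 10 were increased and 2 decreased by DNP under DEX, with a median log2 fold change of 0.45 beside 1.25 without. A smaller response was called for 9 of the 20, against 183 of 2627 induced and 68 of 2771 lowered genes. Ddit4, a lowered gene (-2.47 without DEX and -1.35 under DEX), was among them and was named after its value was seen. Per1 was also among them, but its response reversed, from 0.44 without DEX to -0.60 under DEX. Of the genes induced by 1 to 2 on the log2 scale without DEX 63 of 571 had a smaller response. It was 55 of 265 between 2 and 4, and 36 of 118 above 4. The induced members lay in several such classes, so no single class is a measure for the list. This list shares Nfkbia with the NF-kB list, Dusp1 and Errfi1 with the MAP kinase list, Irs2 and Sesn1 with the FoxO list and Zfp36 with the mRNA decay list. Dusp1, a phosphatase of p38 and JNK and a known glucocorticoid target, was at 18.2, 19.9, 46.2 and 30.4 CPM in IgE DEX and at 43.4, 50.2, 70.7 and 71.8 CPM in IgE DNP DEX. Both ranges overlapped, since the PEP-/- numbered IgE DEX sample lay above the lowest antigen sample, but within each genotype and replicate set the antigen sample was higher, and the increase of 1.07 ± 0.16 was called (edgeR adjusted p = 5.01e-05). It rose by 4.06 without DEX, from a mean of 0.981 CPM to between 13.1 and 20 CPM. Errfi1, a feedback inhibitor of the EGF receptor, rose by 3.30 ± 0.24 under DEX and by 4.55 without from a start of nearly 11 CPM in both settings. Zfp36, which destabilizes Tnf and other AU-rich mRNAs, rose by 2.41 ± 0.23 under DEX and by 1.47 without, to a mean of 14.2 and 7.20 CPM, with no called difference (edgeR adjusted p = 0.19).

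A smaller response can come with a higher start, a lower end or both, and the same fit gave these 2 levels. DEX raised 1889 genes (14.2%) and lowered 1990 (15.0%) before antigen, and 2344 (17.6%) were higher and 2513 (18.9%) lower with DEX after antigen. Of the 183 induced genes with a smaller response 64 had a called higher start without a called lower end, 88 a called lower end without a called higher start, and 31 both. The median level of these genes was 0.45 higher on the log2 scale before antigen and 0.61 lower after it. Since the difference of responses is the end minus the start, these shares describe the 183 genes and are no separate evidence. Of the 1727 induced genes with no called difference 626 also had a called lower end and 430 a called lower start, 341 of them both. A called lower level after antigen thus also occurred without a called difference of responses, though a missing call does not show that the responses were equal.

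**Figure D3:**
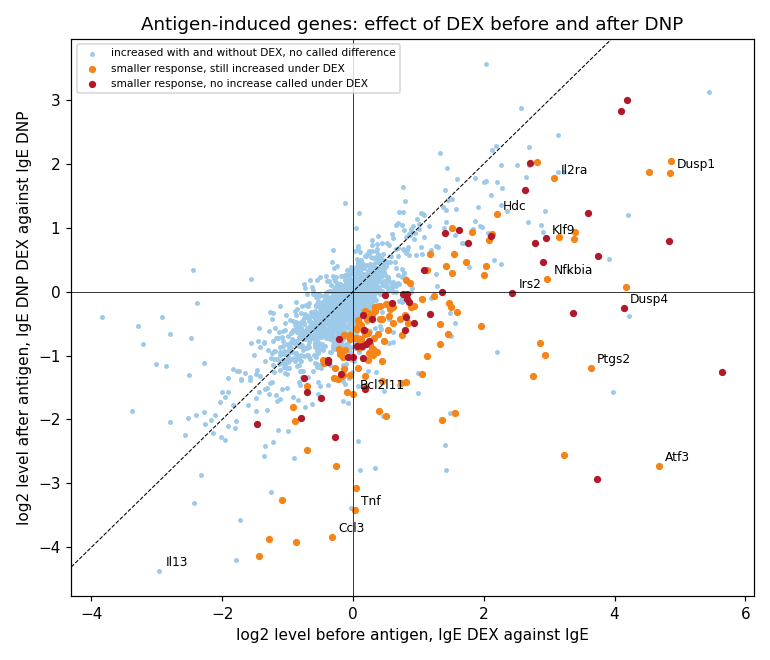
Each point is an antigen-induced gene, placed by the log2 effect of DEX before antigen (x axis, IgE DEX against IgE) and after antigen (y axis, IgE DNP DEX against IgE DNP), and on the dashed line the response to DNP is equal with and without DEX. Tnf, Ccl3 and Bcl2l11 lie below 0 on the y axis at a start near 0, Dusp4, Irs2 and Nfkbia lie near 0 on the y axis at a higher start, and Il13 lies low on both axes.

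The induced genes that lost their call under DEX with the largest called difference were Dusp4, Jcad, Irs2, Klf9, Perp, Rab11fip1, Dusp10 and Rapgef6. Jcad, an endothelial junction protein, was at 218, 133, 272 and 154 CPM in IgE DEX and at 118, 146, 240 and 143 CPM in IgE DNP DEX. No direction was common to all samples, and the change was -0.24 ± 0.16, beside an increase of 2.95 without DEX from a mean of 14.4 to 109 CPM. Irs2, an adaptor of the insulin receptor, had a mean of 19.6 CPM before and 19.8 CPM after antigen under DEX, which was close to the 21.0 CPM it reached from 3.53 CPM without DEX. Klf9, a Krüppel-like factor known as a glucocorticoid target, was at 102, 31.5, 117 and 42.9 CPM and then at 57.5, 37.1, 122 and 25 CPM, with overlapping groups, a change of -0.26 ± 0.18 and an increase of 1.85 without DEX. Perp, a p53 target of cell junctions, stayed at a mean of 27.9 and 27.4 CPM, and Rapgef6, an exchange factor of Rap, went from 57.4 to 68.0 CPM. Of these genes Rab11fip1, a Rab11 effector of recycling endosomes, and Dusp10 did not start higher: Rab11fip1 was at 1.71 CPM in IgE DEX and 1.11 CPM in IgE DNP DEX against 2.08 and 5.79 CPM without DEX. The missing calls depended on single samples for 3 of these genes: Klf9 (-0.51) and Rab11fip1 (-0.75) were called decreased without the lettered PEP+/+ IgE DNP DEX sample, and Rapgef6 (0.46) increased without the numbered one.

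In 8 induced genes the response was called in the opposite direction under DEX. These included Arl5b, Lrp4, Per1, Rasd1, Rrm2 and Slc25a25, and all but Arl5b were named after their values were seen. Arl5b, a small GTPase of the Golgi, was at 180, 151, 213 and 160 CPM in IgE DEX and at 87.7, 84.1, 136 and 80.6 CPM in IgE DNP DEX, lower in all 4 samples with antigen, a change of -0.87 ± 0.11 on the log2 scale (edgeR adjusted p = 9.37e-06). Without DEX it rose from a mean of 14.7 to 41.6 CPM, so its mean remained higher with DEX than without after antigen. Per1, a clock gene and glucocorticoid target, fell by 0.60 on the log2 scale under DEX and rose by 0.44 without. Rasd1, a Ras-like protein known to be induced by dexamethasone, had log2 fold changes of -1.76 and 2.28 in the same order. The difference of responses was called for these 6 of the 8.

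Of 9 genes of eicosanoid synthesis 3 were increased and 1 decreased under DEX, beside 20.1% and 21.0% of all genes. Ptgs2, the inducible cyclooxygenase COX-2, was at 3.39, 1.05, 12.3 and 2.95 CPM in IgE DEX and at 11.1, 13.2, 54.6 and 18.9 CPM in IgE DNP DEX. The PEP-/- numbered samples were the highest of both groups, so the ranges overlapped, and the increase of 2.39 ± 0.39 was called (edgeR adjusted p = 1.04e-04). It was 4.83 ± 0.77 smaller than without DEX, where the start was at 0.371 CPM. Ptgds, the lipocalin-type prostaglandin D2 synthase, was at 4.89, 5.3, 12.8 and 14.5 CPM before and at 8.07, 4.93, 9.7 and 14.3 CPM after antigen, with no called change (0.03 ± 0.20, edgeR adjusted p = 0.92), and at 0.0946 CPM or less in all samples without DEX. Pla2g4a, the phospholipase that releases arachidonic acid, fell by 0.68 ± 0.11 on the log2 scale under DEX (edgeR adjusted p = 1.05e-04) and by 0.54 without.

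Of 12 genes of mast cell granules 4 were increased under DEX, 4 without DEX, and none was decreased. Among all genes 20.1% were increased and 21.0% decreased under DEX. Hdc, which makes histamine, was at 438, 243, 463 and 387 CPM in IgE DEX and at 1796, 1429, 1662 and 1729 CPM in IgE DNP DEX. The groups did not overlap, and the increase of 2.13 ± 0.17 (edgeR adjusted p = 1.32e-08) was 0.99 smaller than without DEX, although the mean after antigen was 1654 CPM with DEX and 715 CPM without. Tpsab1, a tryptase, went from 1.82, 3.66, 1.66 and 2.54 CPM to 41.1, 84.3, 20.3 and 62 CPM, an increase of 4.37 ± 0.19 on the log2 scale beside 3.50 without DEX and no called difference (edgeR adjusted p = 0.088). Tpsab1 has a close copy in Tpsb2, and reads of both can be lost to the rule on several alignments, so its level is uncertain.

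Among 13 surface activation genes tested 8 were increased and 1 decreased under DEX, beside 20.1% and 21.0% of all genes. Tnfrsf12a, the receptor of TWEAK, rose from 6.91, 4.88, 3.37 and 3.25 CPM to 76.3, 84.8, 52.8 and 74.6 CPM, a log2 fold change of 3.98 ± 0.18 against 3.46 without DEX. Il2ra, the IL-2 receptor α chain, went from 520, 238, 557 and 301 CPM to 620, 491, 783 and 503 CPM. These ranges overlapped, each antigen sample was above the sample of its own genotype and set, and the increase of 0.62 ± 0.15 (edgeR adjusted p = 0.0032) was 1.31 smaller than without DEX. Plaur, the urokinase receptor, rose by 1.93 ± 0.16 under DEX and by 4.42 without (edgeR adjusted p of the difference = 7.91e-06).

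Of 10 growth factor genes tested 6 were increased and 1 decreased, beside 20.1% and 21.0% of all genes, with 1 called smaller response. Hbegf, a ligand of the EGF receptor, was at 1.56, 1.43, 0.778 and 0.814 CPM in IgE DEX and at 23.8, 35.4, 18.5 and 31.6 CPM in IgE DNP DEX, an increase of 4.54 ± 0.16 beside 4.43 without DEX. The groups were far apart and the difference of responses was not called (edgeR adjusted p = 0.90). Pdgfa, a PDGF chain, rose by 2.05 ± 0.15 under DEX and 3.19 without, with a called difference. Inhba, the activin A subunit, had 1 read before and 13 after antigen in all 4 samples together, a ratio of 18.9 with a 95% counting interval of 2.84 to 802.

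Of 12 factors of mRNA decay tested 8 were increased and 1 decreased under DEX, beside 20.1% and 21.0% of all genes. Zc3h12c, a relative of the endonuclease Regnase-1, went from 24.6, 19.5, 26.5 and 19.7 CPM to 58.8, 64.2, 114 and 78.7 CPM. All antigen samples were higher, and the increase of 1.79 ± 0.17 was 2.35 ± 0.25 smaller than without DEX (edgeR adjusted p = 1.78e-05). Btg1, which stimulates deadenylation, rose by 0.29 ± 0.10 under DEX (edgeR adjusted p = 0.026) and by 1.73 without. The call under DEX for Btg1 was lost without the lettered PEP+/+ or the lettered PEP-/- IgE DEX sample, with values of 0.26 and 0.24.

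Of 20 genes of IgE receptor signalling 8 were increased and 8 decreased under DEX, beside 20.1% and 21.0% of all genes, 6 and 3 without DEX, and no gene had a called difference of responses. Orai1, the pore of the store-operated calcium channel, rose by 1.24 ± 0.13 on the log2 scale under DEX, from a mean of 15.1 to 36.0 CPM. The NFAT and calcineurin list had 3 increased and 3 decreased of 11 genes tested. Nfatc1, a calcium-regulated transcription factor, rose from a mean of 101 to 306 CPM, by 1.63 ± 0.14 on the log2 scale under DEX and by 2.60 without (edgeR adjusted p of the difference = 0.0095). Rcan1, an inhibitor of calcineurin that NFAT induces, rose by 0.71 ± 0.14 and 1.92 in the same order (edgeR adjusted p of the difference = 0.0011).

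Among FoxO targets and quiescence genes 8 of 18 tested were decreased and 3 increased under DEX, and 8 were decreased without DEX, 6 of them shared. Bcl2l11, the death factor BIM, went the other way, from 10, 15.6, 13.7 and 15.1 CPM to 34, 58.4, 48.6 and 53.8 CPM. It did so in every sample, by 1.84 ± 0.13 under DEX, and the response was 1.61 ± 0.18 smaller than without DEX, where its start was the same within 0.01 on the log2 scale. Bcl6, a transcriptional repressor, rose from a mean of 10.3 to 29.0 CPM. Of 18 genes of ribosome biogenesis 4 were increased and 1 decreased, shares near or below the 20.1% and 21.0% of all genes. Rrp12, a ribosome export factor, rose by 0.79 ± 0.19 with and by 0.79 without DEX, and Utp20, a processing factor, fell by 0.68 ± 0.22 (edgeR adjusted p = 0.018). The call of Utp20 was lost without the numbered PEP+/+ or the lettered PEP-/- IgE DNP DEX sample, at -0.43 and -0.63. Of 7 common reference genes 4 were increased under DEX and 1 without. Actb, the gene of β-actin, rose by 0.96 ± 0.12 from a mean of 1985 to 3848 CPM, and Hprt by 0.43 ± 0.08.

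**Figure D4:**
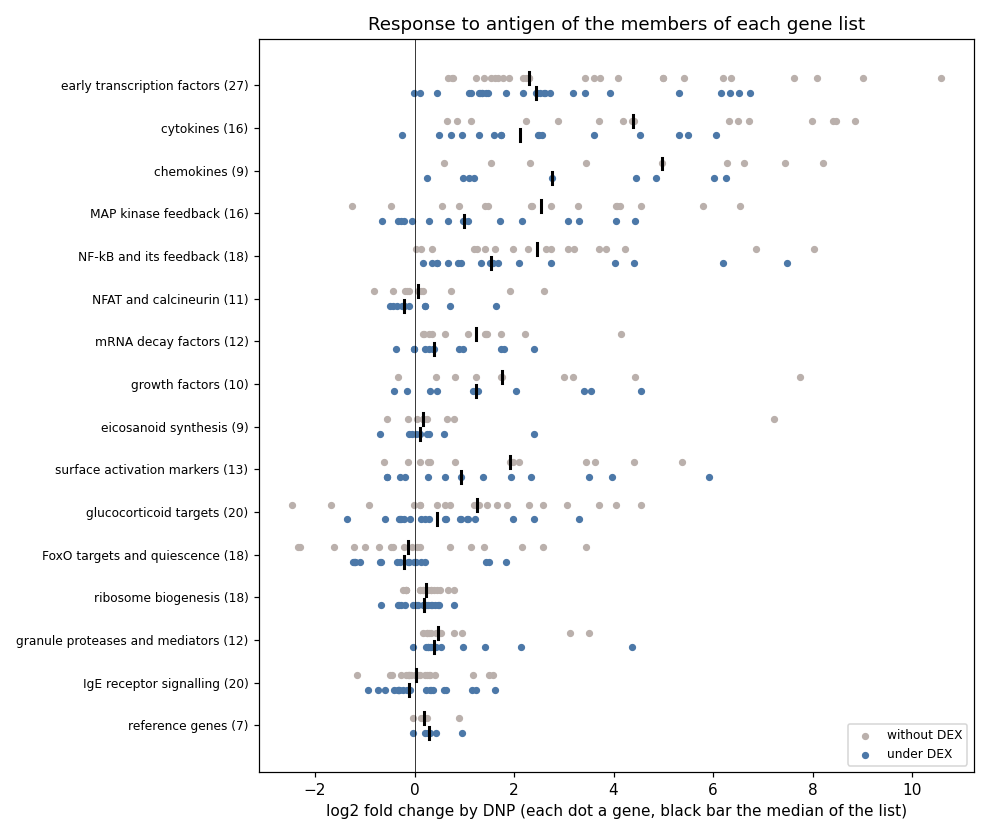
Log2 fold change by DNP of each tested member of the 16 gene lists, grey without DEX (4 against 4 samples) and blue under DEX (4 against 4 samples), with the number tested in brackets and a black bar at the median. The median of the early transcription factors was 2.31 without and 2.45 under DEX, while that of the cytokines was 4.39 and 2.11.

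Genes lowered by antigen also kept responding, mostly in moderate steps: 3 genes fell by 3 or more on the log2 scale under DEX, while 108 rose by as much. Kcnj2, the inward rectifier potassium channel Kir2.1, was at 6.52, 11.6, 7.31 and 11.5 CPM in IgE DEX and at 1.04, 0.937, 0.86 and 0.952 CPM in IgE DNP DEX. The groups were far apart, a change of -3.30 ± 0.30 on the log2 scale (edgeR adjusted p = 9.42e-08), beside -4.44 without DEX and no called difference. Card6, a caspase recruitment domain protein, was at 45.7, 50.9, 64.8 and 54.3 CPM before and at 5.47, 7.12, 11.8 and 9.61 CPM after antigen. Its response of -2.69 ± 0.14 was like the -2.71 without DEX, although its mean after antigen under DEX, 8.50 CPM, was above its mean before antigen without DEX, 7.44 CPM. Gdf15, a stress-induced cytokine of the TGF-β family, fell from 16.5, 24.4, 17.1 and 31.8 CPM to 3.38, 4.93, 3.13 and 5.99 CPM, by 2.37 ± 0.12 on the log2 scale. Without DEX it fell by 1.71, and the difference was not called (edgeR adjusted p = 0.067).

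The other large decreases were Il6st, ENSMUSG00000073672, 2900052L18Rik, Tmem86a and Tmem206. Il6st, the shared receptor chain gp130 of the IL-6 family, was at 17.7, 11, 12.6 and 12.8 CPM in IgE DEX and at 2.6, 2.87, 3.28 and 3.33 CPM in IgE DNP DEX. It fell by 2.13 ± 0.24 on the log2 scale under DEX, with no called change without DEX (-0.49, edgeR adjusted p = 0.28, from a start of 1.53 CPM) and a called difference (edgeR adjusted p = 0.049). Tmem206, an acid-activated chloride channel, fell by 1.97 ± 0.17 under DEX and 2.44 without from starts of 26.0 and 28.6 CPM. Tmem86a, a lysoplasmalogenase, fell by 2.00 ± 0.20 and 1.37, and the unnamed genes by 2.35 ± 0.26 and 2.15 ± 0.34 under DEX.

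A smaller response was called for 68 of the 2771 lowered genes, 37 of which were still decreased under DEX, 28 not called and 3 increased (Kcne3, Lipt2 and Rin3, named after their values were seen). This number was between 40 and 120 when single samples were left out: 40, 43 and 45 without the lettered PEP-/- IgE, the lettered PEP-/- IgE DNP and the numbered PEP-/- IgE sample, 41 and 45 without the numbered PEP+/+ IgE DEX and IgE samples, and 120 without the numbered PEP+/+ IgE DNP DEX sample. Lyl1, a basic helix-loop-helix factor of early blood cells, was at 176, 235, 189 and 252 CPM in IgE DEX and at 179, 239, 142 and 251 CPM in IgE DNP DEX, a change of -0.10 ± 0.12. Without DEX it fell from a mean of 211 to 88.7 CPM, and the difference of 1.16 ± 0.17 was called (edgeR adjusted p = 5.05e-04). Gfi1b, a repressor of blood lineages, was likewise not called under DEX (0.15 ± 0.16) and fell by 0.94 on the log2 scale without DEX. Gnaz, a G protein α subunit, and Styk1, a receptor-like kinase, started low under DEX, at 9.91 and 2.57 CPM against 24.2 and 7.32 CPM, and showed no called change there, though Styk1 was called increased (0.56) without the numbered PEP+/+ IgE DNP DEX sample. Of the 68 genes 51 had a called higher level with DEX after antigen and 28 a called lower level before it.

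**Figure D5:**
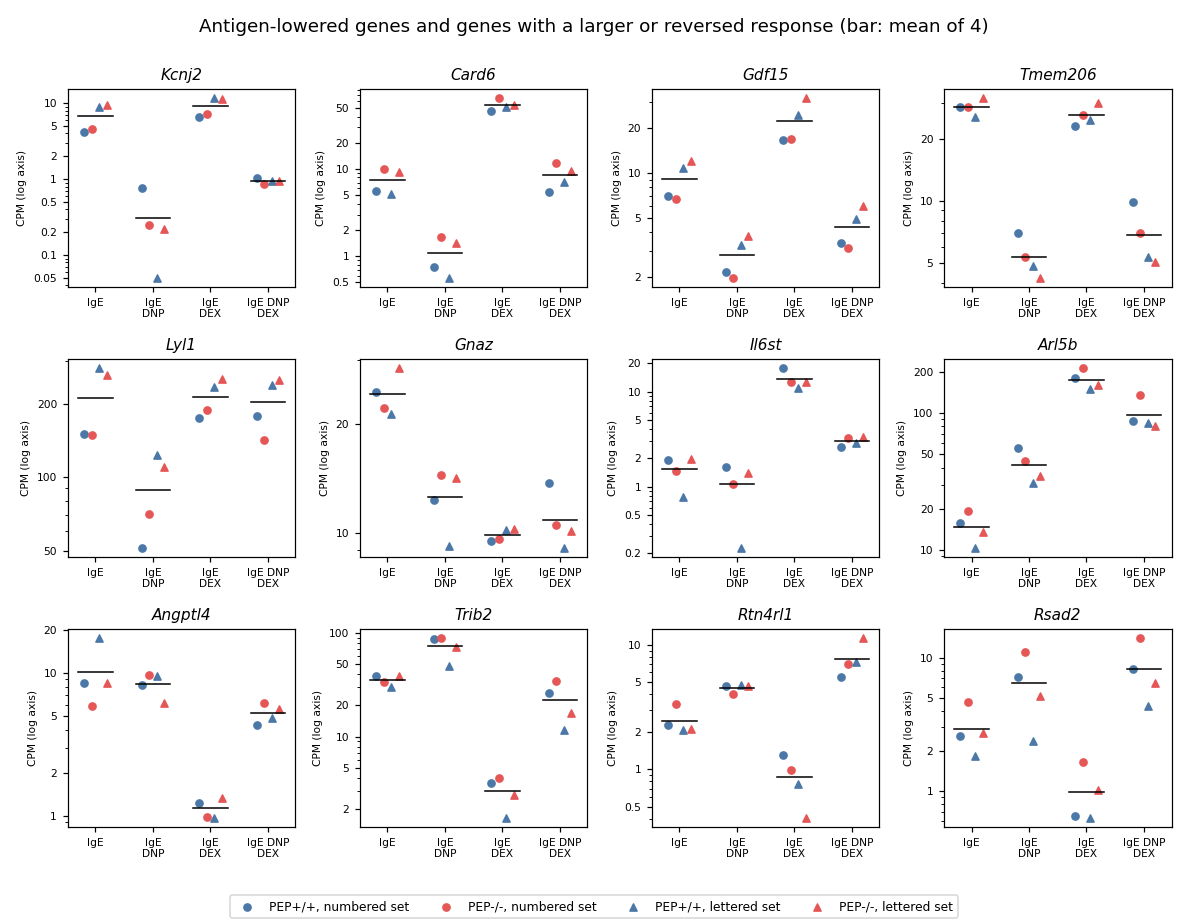
CPM on a log axis of 12 genes in all 16 samples, by treatment, with circles for the numbered and triangles for the lettered set, blue for PEP+/+ and red for PEP-/-, and a bar at the mean of 4 (a value of 0 is drawn at 0.05). Kcnj2, Card6, Gdf15 and Tmem206 fell with DNP in both settings, Lyl1 and Gnaz fell without DEX, Il6st and Arl5b fell under DEX, and Angptl4, Trib2, Rtn4rl1 and Rsad2 started low in IgE DEX and rose.

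Some genes were called under DEX that were not called without. There were 1609 genes called under DEX alone, 797 increased and 812 decreased, but the difference of responses was called for 47 of them, 27 increased and 20 decreased. In all 77 genes were called under DEX with a called difference in the same direction, 50 increased and 27 decreased. Of these 9 were called in the opposite direction without DEX and are also counted among the smaller responses above. The 77 fell to 46 without the numbered PEP-/- IgE or the lettered PEP-/- IgE DNP sample, and to 48 and 51 without the lettered PEP+/+ IgE and IgE DEX samples. They rose to 120 and 117 without the numbered and the lettered PEP+/+ IgE DNP DEX sample.

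Angptl4, a secreted inhibitor of lipoprotein lipase, was at 1.24, 0.967, 0.985 and 1.32 CPM in IgE DEX and at 4.3, 4.81, 6.18 and 5.61 CPM in IgE DNP DEX. All 4 antigen samples were higher, by 2.27 ± 0.32 on the log2 scale (edgeR adjusted p = 1.66e-05), while without DEX its mean was 10.1 CPM before and 8.35 CPM after antigen. Trib2, a pseudokinase, went from 3.58, 1.64, 3.99 and 2.75 CPM to 26.7, 11.5, 34.5 and 16.8 CPM, by 2.88 ± 0.21, against 1.03 without DEX (edgeR adjusted p of the difference = 4.67e-04). It nonetheless stayed below the IgE level of 35.2 CPM on average. Rsad2, the antiviral protein viperin, rose by 3.03 ± 0.20 under DEX and by 1.08 without, from 0.990 to 8.26 CPM and from 2.94 to 6.43 CPM. Rtn4rl1, a Nogo receptor homologue, rose by 3.09 ± 0.27 and 0.89 in the same order, and Rpp25, a subunit of RNase P, by 2.79 ± 0.22 and 1.13. Of the 50 genes with a larger increase 33 had a called lower start with DEX and 25 a called higher end.

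The response under DEX was compared between genotypes in the fit with 8 condition means. No gene differed between PEP-/- and PEP+/+ cells with edgeR at an adjusted p under 0.05, and none did with DESeq2. With edgeR 306 of the 13305 genes were at an unadjusted p under 0.05, fewer than chance alone gives at this threshold. The test was thus conservative here, and the missing calls do not show that both genotypes responded alike. With single samples left out, genes differed between genotypes only without the lettered PEP+/+ IgE DNP DEX sample. Each such fit leaves a condition with 1 sample that is assumed to vary like the others. This also holds without the numbered PEP+/+ IgE DNP DEX sample, so the lack of calls depended on the lettered one. Within PEP+/+ cells alone 877 and 481 genes were called increased and decreased by DNP under DEX, and within PEP-/- cells alone 2049 and 1990, each from 2 samples against 2, and the difference between these counts was not tested. Il13 was at 24.3 and 38.4 CPM in PEP+/+ and 11.3 and 17.9 CPM in PEP-/- IgE DNP DEX samples, with a difference of responses of -0.55 on the log2 scale between genotypes (edgeR adjusted p = 1.00).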

How the data were processed

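RNA of 16 BMMC samples was sequenced with a stranded library kit, and the authors deposited raw read counts per Ensembl gene (1 file per sample, 39179 genes), made by alignment with TopHat2 to GRCm38 and counting with HTSeq. The strand setting of the counting was not given in the sources used here, so antisense and overlapping genes are uncertain, and near-identical copies (the tryptases and Mcpt genes) lose reads that align to several places. Reads not assigned to a gene (29.1% to 49.6% per sample) were kept out of library sizes and tests. Gene names came from GENCODE, which matched 37693 identifiers (96.2%).

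The counts were fitted with edgeR 4.0.16 in R 4.3.3 (quasi-likelihood test, TMM, a minimum count of 10 in filterByExpr, 13305 genes, 10 residual degrees of freedom) over all 16 samples, with treatment, genotype and replicate set as terms. Contrasts were IgE DNP DEX against IgE DEX, IgE DNP against IgE, and the difference of both, called at a Benjamini-Hochberg adjusted p under 0.05. Values after ± are standard errors. The choice of antigen genes shares samples with the difference of responses, which favours smaller responses. Genotypes were compared with 8 condition means (7 residual degrees of freedom). Samples of the same set deviated together in all 28 pairs of conditions (correlations 0.453 to 0.799), so the set was kept as a block. Counting intervals and floors of 3 reads cover counting error only.

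Genes were named by rule: those the study names, the 10 largest increases and 8 largest decreases with the same sign in all 4 differences and at least 5 CPM on average, the 8 induced and 4 lowered genes with the largest loss of response and no call under DEX, the 6 largest gains, and from each list the members with the largest called changes and differences. Other members are named with their values. Values of some genes that the rule names are not reported here. The comparison, gene lists and rules were chosen with earlier results of these data known. Alternatives were DESeq2 1.42.0, its size factors, other count filters, no replicate block, 8 condition means, the 8 samples alone, a log2 threshold of 1, either genotype alone, each sample left out and, chosen after seeing the data, library sizes without TMM. The test was tried on simulated data with known changes.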

Additional observations from a re-analysis of the deposited data

Results flagged for a closer look

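In 6 of 154 groups of 4 samples of a named gene 1 sample stood far from the other 3. The cutoff used flags about 1 of 20 groups of 4 alike, normally distributed values. These groups mix 2 genotypes and 2 replicate sets, so that rate is no measure for them. Atf3 was at 5.55 CPM in the PEP-/- numbered IgE DEX sample and at 0.967 to 1.5 CPM in the others. Arl5b was at 136 CPM in the PEP-/- numbered IgE DNP DEX sample and at 80.6 to 87.7 CPM in the others. ENSMUSG00000073672 was at 2.00 CPM in the PEP-/- lettered IgE DNP DEX sample and at 1.04 to 1.17 CPM in the others. Olr1 and Inhba were each at 0.0651 CPM in the PEP+/+ numbered IgE DEX sample, and Il33 at 0.102 CPM in the PEP-/- lettered one. Each of these is 1 read, with 0 in the other samples, which the cutoff always flags.

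The response to antigen differed with and without DEX, by the test of the difference itself, in 183 antigen-induced and 68 antigen-lowered genes with a smaller response and in 77 genes with a larger response under DEX. These groups overlap, since 9 genes whose response reversed are counted both as smaller and as larger.

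Reads that aligned to several places, which no comparison of genes uses, made up 33.0% ± 3.28 (SD, n = 4) of the reads in IgE DNP DEX and 26.2% ± 1.08 in IgE DEX. They were higher with antigen in each of the 4 pairs of samples of the same genotype and set. An exact permutation test that ignored these pairs gave p = 0.0286, and no paired test was run. The share was 28.0% ± 3.15 in IgE DNP and 23.6% ± 1.83 in IgE.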

How the results depend on the processing

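With DESeq2, its size factors, either other count filter, the 8 condition means or the 8 samples alone, the numbers of genes called under DEX stayed within 1.5 times. The count of differences was less stable: DESeq2 gave 122 lowered genes with a smaller response and 133 genes with a larger one, and the 8 condition means 37 and 48. With the 8 samples alone the median of the induced genes was 0.457. Without the replicate block, 1332 genes were increased and 1138 decreased under DEX, 1015 induced and 812 lowered genes kept their direction with medians of 0.852 and -0.622, and 53 induced genes, 11 lowered genes and 10 genes had a smaller, smaller and larger response. Of 18 differences of named genes 12 lost their call without the block, as did 7 of 78 responses.

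At a log2 fold change of at least 1 the numbers in the same order were 766, 403, 609, 253, 1.35, -0.91, 103, 15 and 17. In PEP+/+ samples alone they were 877, 481, 648, 277, 1.15, -0.72, 17, 0 and 1, and in PEP-/- samples alone the last 3 were 107, 26 and 35. With library sizes without TMM, chosen after seeing the data, 1324 genes were increased and 5466 decreased, 966 induced and 4634 lowered genes kept their direction, the median of the induced genes was 0.725 and 111 lowered genes had a smaller response. With no filter on low counts 6 genes differed between genotypes. The cause of these changes was not tested, other than fewer samples or a stricter threshold.

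With each sample left out in turn, induced genes with a smaller response numbered 120 to 212, lowered genes 40 to 120, genes with a larger response 46 to 120 and genes that differed between genotypes 0 to 633, and the medians ranged from 0.515 to 0.665 and from -0.55 to -0.445.

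Several genes not called under DEX changed sign or gained a call. Klf9 (-0.51), Rab11fip1 (-0.75), Rapgef6 (0.46) and Styk1 (0.56) were called with 1 sample left out, Perp (0.58) and Rapgef6 (0.43) in PEP-/- alone, and Dusp4 (-0.59), Jcad (-0.50), Klf9 (-0.51), Rab11fip1 (-0.80) and Lyl1 (-0.36) without TMM. In PEP+/+ alone Perp was at -0.285, Dusp10 at 0.193 and Lyl1 at 0.036, and in PEP-/- alone Ptgds was at -0.212, Dusp4 at 0.132 and Gfi1b at -0.0514. Without TMM Ptgds was at -0.242, Irs2 at -0.117, Perp at -0.203, Gfi1b at -0.115 and Gnaz at -0.147. With a sample left out Ptgds ranged from -0.168 to 0.233, Irs2 from -0.239 to 0.412, Perp from -0.164 to 0.408, Gfi1b from -0.0415 to 0.314 and Gnaz from -0.0118 to 0.198.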
